A study of Mus musculus with 15 samples.

Results

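The 4 miRNA entries described here are the mature products of 2 precursor hairpins of mouse myeloid cells, mmu-miR-223-3p and mmu-miR-223-5p from Mir223, and mmu-miR-142a-3p and mmu-miR-142a-5p from Mir142. They were taken by name from the 1994 miRNA and piRNA entries counted in the study, and all 4 were among the 1435 entries that passed the filter on low counts. Small RNA libraries came from microglia, brain-resident macrophages, of mice given Methoxy-X04 (abbreviated Me-X04), an amyloid-binding dye. Cells positive for CD11b and CD45 were sorted. The group TG Me-X04+ held cells of 5xFAD transgenic (TG) mice, which express mutant human amyloid precursor protein and presenilin 1 in neurons from the Thy1 promoter, that carried the dye. The group TG Me-X04- held dye-free cells of the same 5 TG mice, and the WT group held dye-free cells of 5 wild-type mice. The labels give the TG mice an age of 6 months and the WT mice an age of 2 months, which means that genotype and age cannot be told apart wherever WT is compared. Each group had 5 libraries, 15 in all.

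A miRNA hairpin is cut into a duplex of a 5p and a 3p arm, 1 of which is usually retained by Argonaute, and the bases after the first one of the retained arm, the seed, pair with target mRNAs. miR-223 is known as a miRNA of neutrophils, monocytes and macrophages that restrains granulocyte production and the NLRP3 inflammasome, and miR-142 is expressed throughout the haematopoietic lineage, microglia included. Both serve as markers of haematopoietic cells in brain tissue, myeloid cells among them.

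The mature sequences are shown to make clear which molecules were counted and why 1 pair of entries is hard to separate. They come from RefSeq (GRCm38.p6), are written 5′ to 3′, and have the seed, bases 2 to 8, in capitals.
miR-223-3p: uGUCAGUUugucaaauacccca
miR-223-5p: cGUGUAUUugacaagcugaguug
miR-142a-3p: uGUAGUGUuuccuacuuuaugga
miR-142a-5p: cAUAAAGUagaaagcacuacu
miR-142b: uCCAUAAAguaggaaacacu
No other name among the 1679 mature miRNAs of that table shared a seed with any of these 5, so each is a seed group of its own. miR-223-3p lies at chrX:96242884-96242905 and miR-223-5p at chrX:96242842-96242864, both on the plus strand and within the non-coding transcript F630028O10Rik. miR-142a-3p lies at chr11:87756903-87756925 and miR-142a-5p at chr11:87756867-87756887, both on the plus strand and within the host transcript Mir142hg. No transcript of either host gene was listed in the study's table of other RNAs.

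miR-142b is not one of the 4, but its entry touches them. It is annotated on the opposite strand at chr11:87756906-87756925, and its 20 bases are the reverse complement of bases 4 to 23 of miR-142a-3p. Because the 2 arms of the Mir142 hairpin pair with each other, the antisense of the 3p arm also resembles the 5p arm. The window of the hairpin that starts 2 bases before miR-142a-5p, at chr11:87756865-87756884 on the plus strand, has the seed of miR-142b and differs from it at 3 of 20 bases.
Mir142 window: cCCAUAAAguagaaagcacu
The values of miR-142a-5p and miR-142b are therefore given as uncertain.

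Libraries held 21429882 to 26434297 reads. Distinct molecules, counted by unique molecular identifiers (UMIs) and assigned to miRNAs or piRNAs, numbered 240027 to 372998 in TG Me-X04+ cells, 405351 to 682553 in TG Me-X04- cells and 424536 to 1192832 in WT cells. No table listed a value from 1 to 9, so an entry listed at 0 may hold 0 to 9 UMIs. Levels are CPM, UMI counts brought to a common library total, scaled with TMM factors, which align libraries on the bulk of entries. These factors were 1.33 to 2.92 in TG Me-X04+ cells, 0.577 to 1.19 in TG Me-X04- cells and 0.555 to 0.850 in WT cells, and TG Me-X04+ replicate 3, at 2.92, stood apart. miRNAs took 7.39% to 13.6% of reads in TG Me-X04+ cells, against 17.0% to 25.2% in TG Me-X04- cells and 17.1% to 27.6% in WT cells. In bulk samples, fewer cells of a type and less RNA per cell cannot be told apart.

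miR-142a-3p, a regulator of blood cell development, was the most abundant of the 4. It had 4030, 4387, 3645, 3966 and 5252 UMIs in TG Me-X04+ replicates 1 to 5, against 13378, 14049, 7489, 10635 and 9758 in TG Me-X04- cells and 9199, 9991, 15042, 14132 and 20742 in WT cells. Its mean level ranked 10 of 1435 entries in each group. The levels were 9191 ± 2981 CPM in TG Me-X04+ cells, 25384 ± 8041 CPM in TG Me-X04- cells and 30611 ± 3532 CPM in WT cells (SD, n = 5 each). Each TG Me-X04+ library lay below each library of the other groups, whose ranges overlapped. As a share of all miRNA and piRNA UMIs, with no scaling factor, it took 1.5% ± 0.133 in TG Me-X04+ cells, 1.98% ± 0.181 in TG Me-X04- cells and 2.18% ± 0.283 in WT cells. The shares in TG Me-X04+ cells, from 1.34% to 1.68%, did not overlap those in TG Me-X04- cells, from 1.74% to 2.19%, or in WT cells, from 1.74% to 2.48%.

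miR-142a-5p, the other arm of that hairpin, had 113, 94, 79, 99 and 102 UMIs in TG Me-X04+ cells, against 337, 381, 204, 268 and 221 in TG Me-X04- cells and 316, 347, 295, 336 and 519 in WT cells. The counts of the groups did not overlap between TG Me-X04+ and either of the others, but neither did the library totals. The levels were 215 ± 87.0 CPM in TG Me-X04+ cells, 643 ± 198 CPM in TG Me-X04- cells and 828 ± 152 CPM in WT cells (SD, n = 5 each). TMM-scaled levels in TG Me-X04+ cells, at 102 to 339 CPM, lay below those of the other groups. The ranges there were 424 to 957 CPM in TG Me-X04- cells and 696 to 1058 CPM in WT cells. On library size alone the levels overlapped, with 273 to 471 CPM in TG Me-X04+ cells, 393 to 558 CPM in TG Me-X04- cells and 435 to 817 CPM in WT cells.

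miR-223-3p, the main arm of miR-223, was counted at lower depth, with 37, 25, 54, 35 and 87 UMIs in TG Me-X04+ cells, against 150, 235, 140, 94 and 188 in TG Me-X04- cells and 72, 140, 163, 151 and 334 in WT cells. The levels were 95.2 ± 40.0 CPM in TG Me-X04+ cells, 361 ± 101 CPM in TG Me-X04- cells and 368 ± 115 CPM in WT cells (SD, n = 5 each). The highest TG Me-X04+ library, replicate 5 at 159 CPM, was below the lowest TG Me-X04- library at 223 CPM and the lowest WT library at 204 CPM. On library size alone the groups overlapped, with 86.9 to 233 CPM in TG Me-X04+ cells, 181 to 345 CPM in TG Me-X04- cells and 165 to 330 CPM in WT cells. Its mean ranked 301 in TG Me-X04+ cells, 99 in TG Me-X04- cells and 103 in WT cells.

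miR-223-5p, the minor arm, was near the limit of the table. It had 0, 10, 29, 13 and 0 UMIs in TG Me-X04+ cells, 10, 23, 21, 11 and 0 in TG Me-X04- cells and 0, 0, 10, 0 and 23 in WT cells. The libraries listed above 0 numbered 3 in TG Me-X04+ cells, 4 in TG Me-X04- cells and 2 in WT cells, and their counts overlapped. No mean is given because values of 0 stand for a range.

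**Figure D1:**
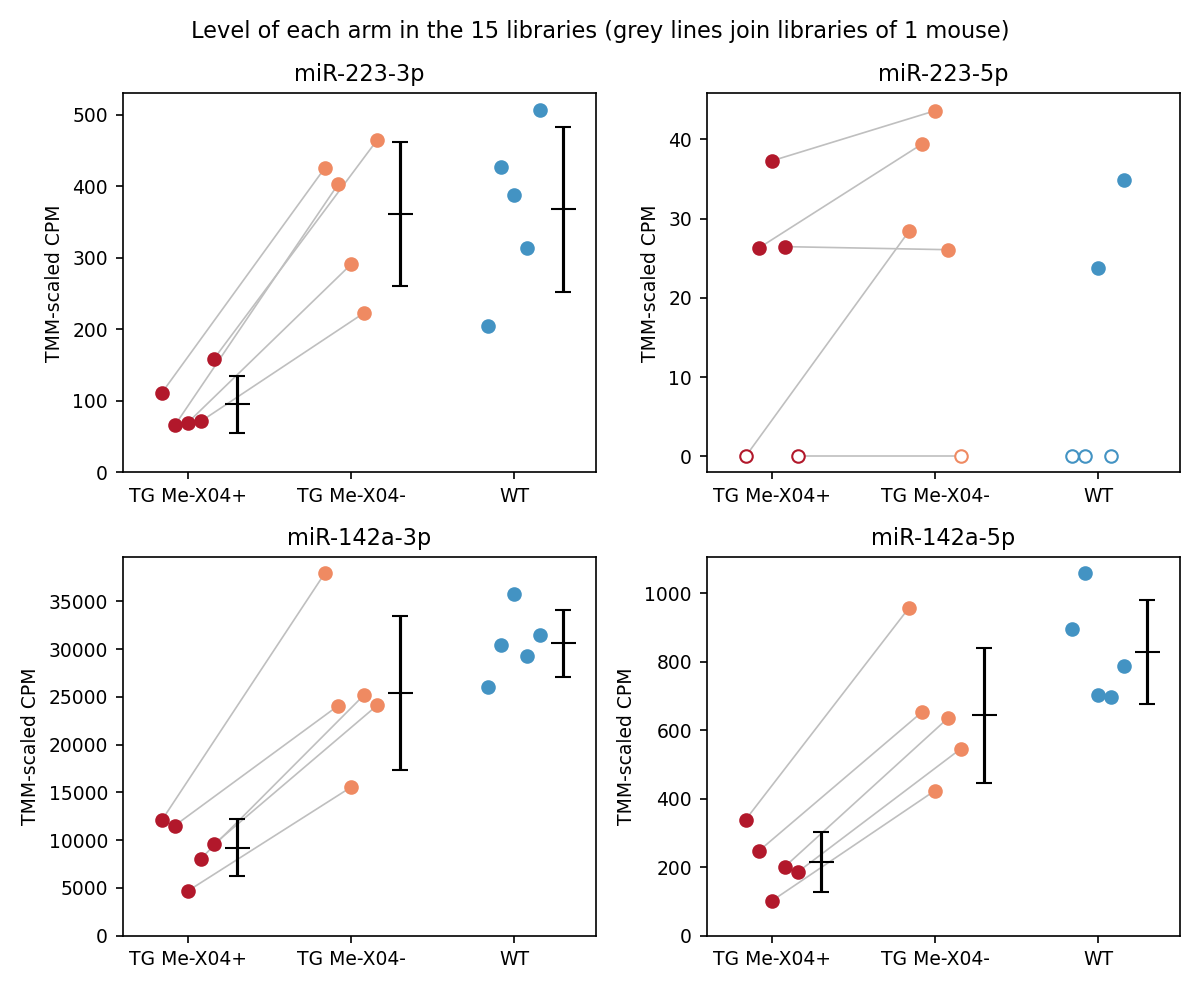
TMM-scaled CPM of each arm (linear axes) in TG Me-X04+, TG Me-X04- and WT cells, with 1 point per library, grey lines joining the libraries of 1 mouse, black bars for the mean ± SD (n = 5), and open points for libraries listed at 0. For miR-223-3p, miR-142a-3p and miR-142a-5p all 5 TG Me-X04+ libraries lie below those of both other groups, while miR-223-5p overlaps.

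In order of mean level, miR-142a-3p came first, followed by miR-142a-5p, miR-223-3p and miR-223-5p, in every group. All are of 21 to 23 bases and were counted as whole molecules, so no correction for length was made, but capture may differ between sequences. miR-142a-5p and miR-223-3p, given in this order, were neighbours whose levels overlapped in TG Me-X04+ cells (102 to 339 CPM and 65.7 to 159 CPM) and in TG Me-X04- cells (424 to 957 CPM and 223 to 465 CPM). They did not overlap in WT cells (696 to 1058 CPM and 204 to 507 CPM).

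The question of whether amyloid-carrying microglia differ from dye-free microglia of the same brains was addressed by comparing TG Me-X04+ with TG Me-X04-. Of the 4 entries, 3 fell and miR-223-5p did not pass the test, where 8.57% of all entries tested were called lower, 1.39% higher and 9.97% in either direction. The TG Me-X04+ libraries lay wholly below the TG Me-X04- libraries for those 3, as they did for 7.46% of all entries. An entry was called when edgeR's quasi-likelihood test gave an adjusted p below 0.05 and its log2 fold change was 0.7 or more in size. The shares over all entries include many with low counts, so they are a low base for well-counted entries, here and below. In a fit of the 672 entries with 10 or more UMIs in every library, 116 were called lower and 65 higher. The fall in miR-223-3p was 3.79-fold, a log2 fold change of -1.92 (SE 0.30, edgeR adjusted p = 1.8e-04). miR-142a-5p fell by 1.59 (SE 0.28, adjusted p = 5.5e-04) and miR-142a-3p fell by 1.47 (SE 0.28, adjusted p = 0.00162). Each of the 3 was lower in the TG Me-X04+ library in 5 of 5 mice. Within a mouse, the log2 difference in miR-223-3p ran from -2.62 to -1.55, that in miR-142a-3p from -1.73 to -1.06 and that in miR-142a-5p from -2.06 to -1.40. miR-223-5p had a log2 fold change of -0.60 (SE 1.56, edgeR adjusted p = 0.997), an error too wide to place it with or apart from the 3p arm, and its sign turned with library size (0.66). Over all entries the median log2 fold change was 0.17. The miRNA share of reads was lower in TG Me-X04+ libraries without overlap, and its part in these falls was not tested.

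The size of these falls depended on how libraries were scaled. When library size replaced the TMM factors, the median over all entries was 1.28, higher by 1.11, and the calls over the table became 484 higher and 16 lower, against 20 higher and 123 lower with TMM. miR-223-3p, at -0.82, remained called lower (adjusted p = 0.0233). miR-142a-3p, at -0.39, kept an adjusted p of 0.00600 but missed the fold threshold, and miR-142a-5p, at -0.52, had an adjusted p of 0.0598. Scaled to the UMIs of all RNA tables the values were -1.0 for miR-223-3p, -0.55 for miR-142a-3p and -0.69 for miR-142a-5p, and miR-223-3p alone was called. All 3 were lower in 5 of 5 mice on library size too, with differences in miR-142a-3p from -0.46 to -0.30. Without TG Me-X04+ replicate 3, the library with the TMM factor of 2.92, the TMM values were -1.83 for miR-223-3p, -1.31 for miR-142a-3p and -1.42 for miR-142a-5p, all still called.

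**Figure D2:**
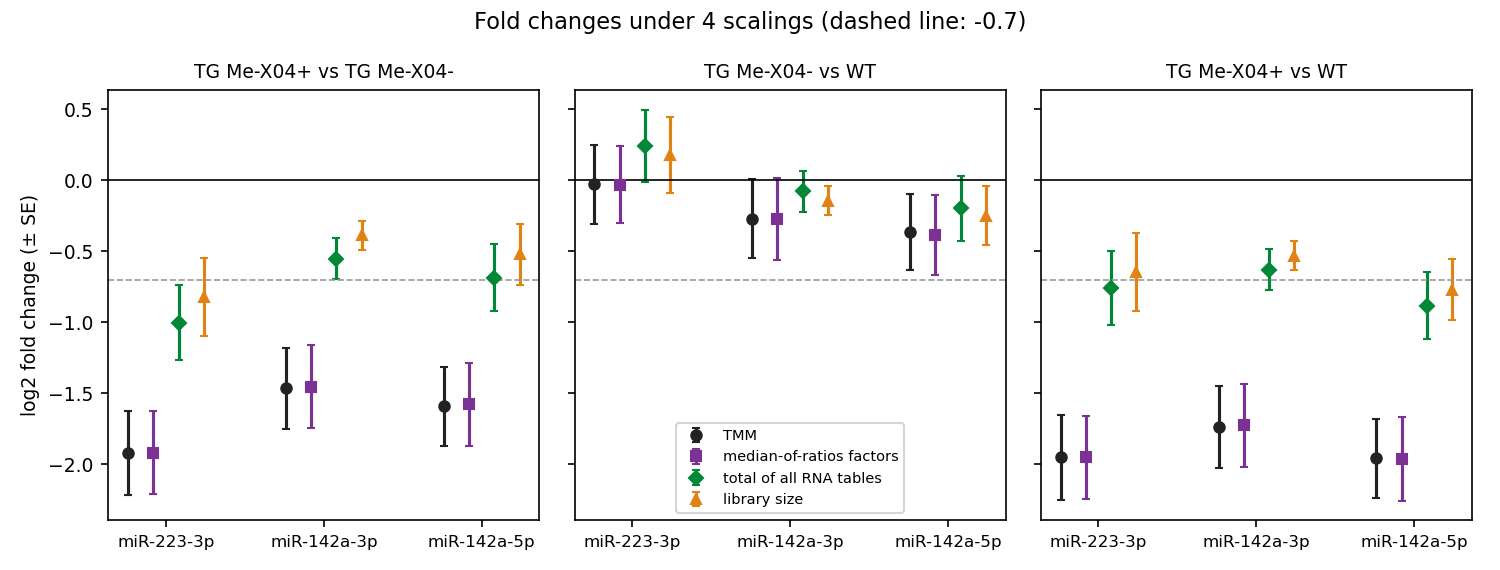
Log2 fold change ± SE of miR-223-3p, miR-142a-3p and miR-142a-5p in the 3 comparisons under 4 scalings, with the fold threshold of -0.7 as a dashed line. Values with library size or the total of all RNA tables are nearer 0 than with TMM in both comparisons of TG Me-X04+, for example -0.39 against -1.47 for miR-142a-3p with library size, but stay below 0.

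Dye-free microglia of TG mice were then set against WT microglia. None of the 4 was called, where 0.139% of all entries tested were, and the groups overlapped for all 4, where TG Me-X04- lay wholly below WT for 0.0697% of entries. The log2 fold changes were -0.03 for miR-223-3p (SE 0.28), -0.27 for miR-142a-3p (SE 0.28) and -0.36 for miR-142a-5p (SE 0.27), each with an adjusted p of 0.998 in edgeR. miR-223-5p was at 1.19 with an SE of 1.57. The sign for miR-223-3p turned under several settings, among them library size at 0.18.

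TG Me-X04+ was last compared with WT, a contrast that shares its TG Me-X04+ libraries with the first. Again 3 of the 4 fell, where 11.7% of all entries tested were called lower, 3.69% higher and 15.4% in either direction. For those 3 all TG Me-X04+ libraries lay below all WT libraries, as for 9.9% of all entries. In the fit of the 672 entries with 10 or more UMIs in every library, 150 were called lower and 104 higher. Log2 fold changes were -1.96 for miR-142a-5p (SE 0.28, edgeR adjusted p = 3.8e-05), -1.95 for miR-223-3p (SE 0.30, adjusted p = 6.5e-05) and -1.74 for miR-142a-3p (SE 0.29, adjusted p = 1.6e-04). miR-223-5p was at 0.59 (SE 1.56) and was not called. With library size miR-142a-5p remained called at -0.77, while miR-223-3p at -0.65 and miR-142a-3p at -0.53 missed the call.

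The proportion of the arms within a library does not depend on scaling. For miR-142a the 5p arm held 2.80%, 2.14%, 2.17%, 2.5% and 1.94% of the UMIs of the 3p arm in TG Me-X04+ replicates 1 to 5, against 2.52%, 2.71%, 2.72%, 2.52% and 2.26% in TG Me-X04- cells and 3.44%, 3.47%, 1.96%, 2.38% and 2.5% in WT cells. WT replicates 1 and 2 were the highest of the 15. The mean was 2.31% ± 0.340 in TG Me-X04+ cells, 2.55% ± 0.187 in TG Me-X04- cells and 2.75% ± 0.674 in WT cells (SD, n = 5 each), and all groups overlapped. The log2 difference was -0.15 between TG Me-X04+ and TG Me-X04- (two-sided exact permutation test, p = 0.175, adjusted p = 0.429 over 9 ratio comparisons), -0.08 between TG Me-X04- and WT (exact permutation, adjusted p = 0.683), and -0.23 between TG Me-X04+ and WT (exact permutation, adjusted p = 0.452). The TG Me-X04+ library had the lower ratio of the pair in 4 of 5 mice. The 2 arms of miR-142a were thus lower in TG Me-X04+ by amounts whose difference was within the spread between libraries.

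Among 106 hairpins with both arms at 10 or more UMIs in every library, miR-142a was one of the most one-sided. Its mean log2 5p/3p ratio was -5.32, against a median absolute value of 0.91, and 6 of the 106 pairs were more unequal. Its difference between TG Me-X04+ and TG Me-X04- lay near the middle of the pairs, with 45 of 106 below it and a median of -0.01, and 14.2% of the pairs had groups that did not overlap. That share was 0.943% between TG Me-X04- and WT and 28.3% between TG Me-X04+ and WT.

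For miR-223 the ratio could be formed only where the 5p arm was listed. It was 40.0%, 53.7% and 37.1% in TG Me-X04+ replicates 2, 3 and 4, against 6.67%, 9.79%, 15% and 11.7% in TG Me-X04- replicates 1 to 4, and 6.13% and 6.89% in WT replicates 3 and 5. In the other libraries only an upper bound is known, which was 24.3% and 10.3% in TG Me-X04+ replicates 1 and 5, 4.79% in TG Me-X04- replicate 5, and 12.5%, 6.43% and 5.96% in WT replicates 1, 2 and 4. The listed TG Me-X04+ values were above every listed value and bound of the other groups, but the bound of TG Me-X04+ replicate 5 lay inside their range. The smallest count listed is 10 UMIs. The ratio of TG Me-X04+ replicate 2, with 10 UMIs over 25, was therefore the lowest it could have had if listed. In replicates 3 and 4, with 54 and 35 UMIs of the 3p arm, any listed 5p count also gives a ratio above 15%. The place of replicates 2, 3 and 4 above the other groups thus followed from the 5p arm being listed, whatever its count.

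With 9 UMIs given to each arm listed at 0, the log2 ratio was higher by 1.70 in TG Me-X04+ cells than in TG Me-X04- cells (two-sided exact permutation test, p = 0.0238, adjusted p = 0.107). It was higher by 1.99 in TG Me-X04+ cells than in WT cells (exact permutation, p = 0.0159, adjusted p = 0.107), so neither difference passed after adjustment. Between TG Me-X04- and WT it was 0.29 (exact permutation, adjusted p = 0.571). These sizes were set in part by the 9 UMIs assumed. With 1 UMI in their place the differences were 1.07 for TG Me-X04+ against TG Me-X04-, 2.62 for TG Me-X04+ against WT and 1.56 for TG Me-X04- against WT (exact permutation, adjusted p from 0.452 to 0.622). With read counts, 9 reads were given to an arm listed at 0. The differences were then 0.71, 2.36 and 1.65 for the same 3 comparisons (exact permutation, adjusted p from 0.405 to 0.732). miR-223-5p had 8.06 reads per UMI, so 9 reads stand for about 1 UMI rather than 9. Of the 5 mice, 3 had the 5p arm listed in both libraries, with the higher ratio in the TG Me-X04+ library. In these 3, any listed 5p count in the TG Me-X04+ library would have given that direction, so it was fixed by the listing. Mouse 1 had the 5p arm listed in TG Me-X04- alone and mouse 5 in neither, so these 2 give no measured direction. In the 9-UMI setting, the difference between TG Me-X04+ and TG Me-X04- without TG Me-X04+ replicate 5 was 2.07 and passed (exact permutation, adjusted p = 0.0357). Replicate 5, with a bound of 10.3%, was the lowest TG Me-X04+ library. In 9 of the 10 tests that left out 1 library, this difference did not pass. These permutation tests leave out the pairing of TG libraries by mouse. An exact test that flips the signs of the 5 within-mouse differences cannot give a p below 0.0625. The bound of 9 UMIs weighs more where the 3p arm is low, as it was in TG Me-X04+ with 25 to 87 UMIs, and counts of the 5p arm of 10 to 29 carry wide counting error. For TG Me-X04+ replicate 2 the 5p arm was 28.6% of the UMIs of both arms, with an exact binomial 95% interval of 14.6% to 46.3% that covers counting error only.

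The relation between the 2 hairpins was followed with the ratio of their main arms. miR-223-3p stood at 1.10% ± 0.452 of miR-142a-3p in TG Me-X04+ cells, 1.49% ± 0.467 in TG Me-X04- cells and 1.19% ± 0.321 in WT cells (SD, n = 5 each). The groups overlapped. The log2 difference was -0.48 between TG Me-X04+ and TG Me-X04- (two-sided exact permutation test, adjusted p = 0.429), 0.31 between TG Me-X04- and WT (exact permutation, adjusted p = 0.452) and -0.17 between TG Me-X04+ and WT (exact permutation, adjusted p = 0.683). Within mice it was lower in TG Me-X04+ in 5 of 5, from -1.55 to -0.002, and the exact sign-flip test of 5 pairs gave 0.0625, the smallest it can give. Mouse 2 had the value of -1.55 and the other 4 mice lay between -0.34 and -0.002.

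**Figure D3:**
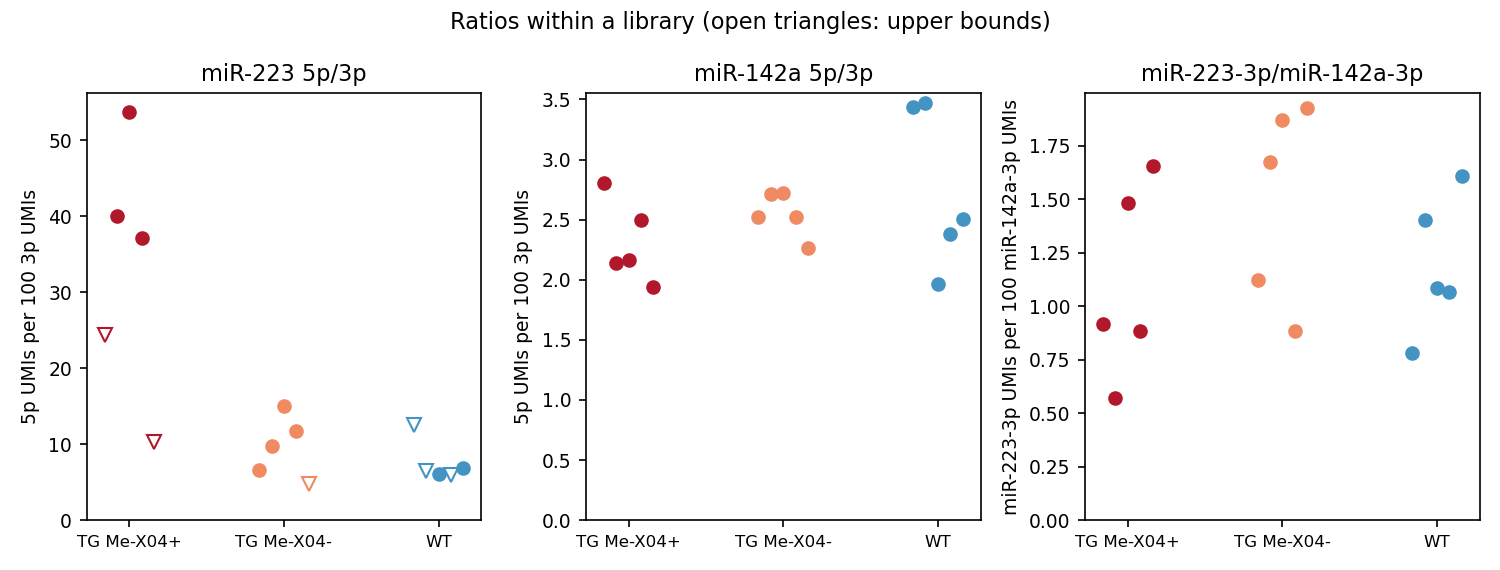
Ratios within each library, as UMIs of the first miRNA in percent of those of the second (linear axes from 0), with 1 point per library in TG Me-X04+, TG Me-X04- and WT cells and open triangles for upper bounds where the 5p arm was listed at 0. The 3 listed miR-223 ratios of TG Me-X04+ lie at 37.1% or above and all other listed ones at 15% or below. With their 3p counts, those 3 could only be listed above 15%. The groups overlap for miR-142a and for miR-223-3p over miR-142a-3p.

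The antisense entry miR-142b had 739, 692, 352, 587 and 660 UMIs in TG Me-X04+ cells, against 1549, 1446, 961, 1401 and 1362 in TG Me-X04- cells and 1438, 2017, 1774, 1378 and 1436 in WT cells. It thus held more UMIs than miR-142a-5p in every library, at 615% ± 108 of it in TG Me-X04+ cells, 490% ± 87.3 in TG Me-X04- cells and 465% ± 133 in WT cells. In reads the 2 entries were closer, and either could be ahead. TG Me-X04+ replicate 5 had 1065 reads of miR-142b and 674 of miR-142a-5p, and WT replicate 5 had 1969 and 2787. In UMIs, miR-142b fell by 1.18 between TG Me-X04+ and TG Me-X04- (SE 0.35, edgeR adjusted p = 0.0319) and by 1.5 between TG Me-X04+ and WT (SE 0.35, adjusted p = 0.00461). Its log2 fold change was -0.32 between TG Me-X04- and WT (SE 0.34, adjusted p = 0.998). The groups overlapped even with TMM. On library size alone miR-142b averaged 2171 ± 676 CPM in TG Me-X04+ cells and 2430 ± 215 CPM in TG Me-X04- cells (SD, n = 5 each), lower in 3 of 5 mice. When its UMIs were added to the 5p arm of miR-142a, the 5p/3p log2 differences turned to 0.13, 0.01 and 0.13 for TG Me-X04+ against TG Me-X04-, TG Me-X04- against WT, and TG Me-X04+ against WT.

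The number of reads behind each UMI set miR-142b apart. Summed over libraries it had 1.49 reads per UMI, with 1.37 to 1.73 in single libraries, against 10.7 for miR-142a-3p, 9.81 for miR-223-3p and 7.50 for miR-142a-5p. The median of 644 miRNA entries with 10 or more UMIs in every library was 10.5, and 3 of the 644 were below miR-142b. miR-142a-5p was also low, with 24 entries below it. Whether reads of the 5p arm were assigned to miR-142b was not tested.

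**Figure D4:**
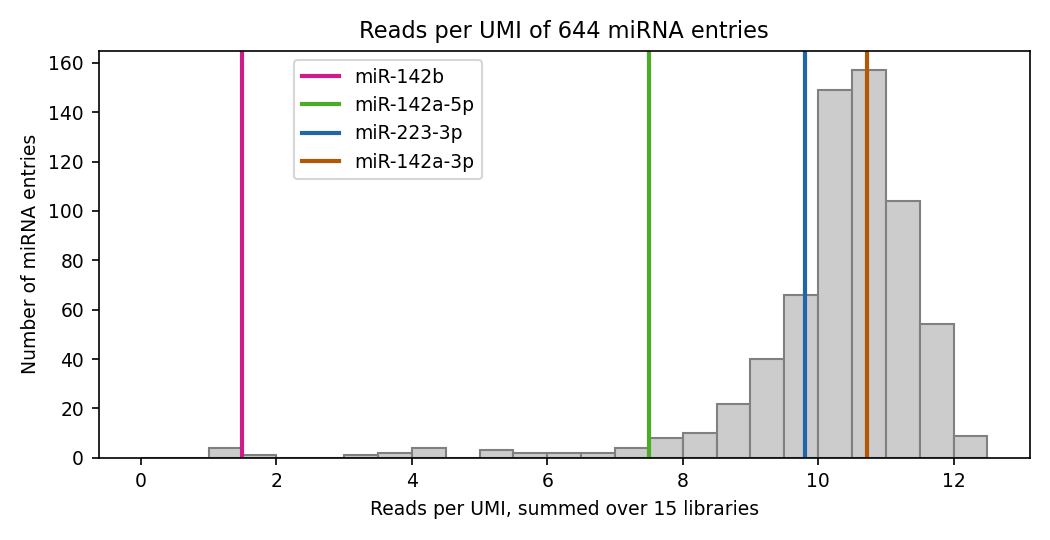
Histogram of reads per UMI, summed over the 15 libraries, for 644 miRNA entries (vertical axis, number of entries), with vertical lines at 4 entries. miR-142b lies at 1.49, far below the median of 10.5, and miR-142a-5p, miR-223-3p and miR-142a-3p lie at 7.50, 9.81 and 10.7.

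A separate table of mappable but uncharacterised sequences held 5 that lie over the Mir142 hairpin and none over Mir223. All 5 begin 2 or 3 bases before miR-142a-5p and so have another seed. Those that begin 2 bases before it each carry 1 substitution against the genome (T5A, A15G or A14G), with 38 to 62 UMIs in all. T5A lies within bases 2 to 8. Whether these are errors of another form was not tested. The one listed in most libraries (12 of 15, with 411 UMIs in all) is shown with its bases 2 to 8 in capitals, as T where the miRNA has U.
Mir142 5p form, chr11:87756864-87756884: aCCCATAAagtagaaagcact
Together the 5 sequences had 0 to 11 UMIs per library in TG Me-X04+ cells, 21 to 69 in TG Me-X04- cells and 49 to 159 in WT cells. The sums were 32 UMIs in TG Me-X04+ cells, 255 in TG Me-X04- cells and 458 in WT cells, with no correction for depth. None of the 5 was listed below 10 UMIs, so smaller counts may stand as 0, which weighs most in shallow libraries. In percent of miR-142a-5p UMIs, the listed counts were 0% to 11.1% in TG Me-X04+ cells. They were 10.3% to 27.1% in TG Me-X04- cells and 15.5% to 30.6% in WT cells.

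Other miRNAs of myeloid cells and inflammation gave a setting for these values. Of 12 such entries, 8 fell and 1 was higher in TG Me-X04+ cells than in TG Me-X04- cells, where 8.57% of all entries fell and 1.39% were higher, and the median log2 fold change was -0.80 against 0.17 over all entries. In the fit of the 672 entries with 10 or more UMIs in every library, 116 fell and 65 were higher, larger shares than over all entries. miR-146a-5p, which dampens Toll-like receptor signalling, fell by 1.92 and miR-342-3p fell by 1.55, while miR-155-5p, induced by inflammatory stimuli, was up by 1.22 (edgeR adjusted p = 0.00892). All 3 of 3 microglia-enriched entries, miR-99a-5p, miR-125b-5p and miR-342-3p, fell, with a median of -1.55. Between TG Me-X04- and WT, miR-155-5p was the single call in these lists, at 1.76. Against WT, 5 of the 12 fell and 1 was higher in TG Me-X04+ cells, where 11.7% of all entries fell and 3.69% were higher. Of the 672 entries, 150 fell and 104 were higher in that comparison.

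Since miR-223 and miR-142 also mark blood cells, entries of other cell types were counted. No list was specific to neutrophils or monocytes, where miR-223 is also known, so the lists do not bear on those cells. None of 4 tested erythroid entries, 2 lymphocyte entries or 4 endothelial and mural entries was called between TG Me-X04+ and TG Me-X04-, where 9.97% of all entries were, so 0 of these 10 is near that share. The defining entries miR-451a and miR-150-5p were listed above 0 in all 15 libraries. The summed level of the erythroid list was 150 to 261 CPM in TG Me-X04+ cells, 223 to 281 CPM in TG Me-X04- cells and 221 to 307 CPM in WT cells, and that of the lymphocyte list was 76.2 to 117 CPM in TG Me-X04+ cells, 77.1 to 131 CPM in TG Me-X04- cells and 61.8 to 144 CPM in WT cells. Of 4 neuronal entries 2 fell and 1 was higher, where 8.57% of all entries fell and 1.39% were higher, and the summed level was 624 to 1014 CPM in TG Me-X04+ cells, 1354 to 2853 CPM in TG Me-X04- cells and 1609 to 3819 CPM in WT cells. Of 2 oligodendrocyte entries 1 fell. Between TG Me-X04+ and WT, 1 erythroid, 2 neuronal and 1 oligodendrocyte entry fell, and 1 endothelial or mural entry was higher and 1 lower, beside 11.7% of all entries lower and 3.69% higher. The entry called higher, miR-145a-5p, held 105 UMIs in all and was listed at 0 in 8 of 15 libraries. Its call thus rests on counts near the limit of the table. The part of other cells in the falls of miR-223 and miR-142a was not tested.

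The entries whose pattern over the 15 libraries was most like each arm were found by Pearson's r of log2 CPM among the 644, as a description only, since the 15 points share TMM factors and group differences. For miR-223-3p they were miR-146b-5p (r = 0.93), miR-361-5p (0.92) and miR-25-3p (0.92), and miR-142a-3p ranked 39 (0.87). For miR-142a-3p they were miR-26b-5p, miR-26a-5p and miR-16-5p, each with r = 0.99, and miR-142a-5p ranked 19 (0.97). For miR-142a-5p they were miR-17-5p (0.98), miR-142a-3p (0.97) and miR-29b-3p (0.97).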

How the data were processed

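Libraries were made with the QIAseq miRNA kit, which tags molecules with UMIs, and the authors used the Qiagen Data Analysis Center to assign reads. They deposited raw counts, as reads and as UMIs. edgeR 3.24.3 and GRCm38 appear in the submitters' processing notes, and the aligner is not given in the sources used here. Ages are those of the labels and differ from the ages in the methods. The methods name a further marker, CX3CR1, for the sort.

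UMI counts of the miRNA and piRNA table were fitted here with edgeR 4.0.16 under R 4.3.3 after filterByExpr, with TMM factors and 1 model for the 15 libraries, the quasi-likelihood F-test and Benjamini-Hochberg adjustment over 1435 entries, with the thresholds of the study's methods; its figure legends give stricter ones, tried as an alternative. The fit was tested on simulated counts. Standard errors were derived from the fold change and its F statistic. Ratios were compared by exact permutation over 252 arrangements (smallest p 0.00794), adjusted over 9. The permutations did not use the pairing of TG libraries by mouse. DESeq2 1.42.0 was an alternative, beside other scalings, filters, read counts, 2 groups alone, a term for sample numbers, and leaving out libraries. No 2 libraries of a group were duplicates (chi-square per degree of freedom 4.04 to 46.7). By the labels the 5 libraries of a group come from 5 mice.

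The TG Me-X04+ library and the TG Me-X04- library with 1 number come from the same mouse by the labels, so they are paired; their deviations from group means correlated from -0.05 to 0.55 (n = 5), against -0.54 to 0.37 for different mice. The members and lists were chosen with earlier results of these data known. The named entries are the 4 arms, miR-142b, the 3 nearest in pattern to each arm, and list members on which a result turns.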

Additional observations from a re-analysis of the deposited data

How the results depend on the processing

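The calls of miR-223-3p, miR-142a-3p and miR-142a-5p in the 2 comparisons of TG Me-X04+ held in 90 of 90 fits that left out 1 library and in 68 of 75 other alternatives. The 7 exceptions were scalings. Library size gave -0.39 for miR-142a-3p and -0.52 for miR-142a-5p against TG Me-X04-, and -0.65 for miR-223-3p and -0.53 for miR-142a-3p against WT; the total of all RNA tables gave -0.55, -0.69 and, for miR-142a-3p against WT, -0.63. These 2 scalings called 500 and 435 entries between TG Me-X04+ and TG Me-X04-, and 672 and 677 between TG Me-X04+ and WT, and turned miR-223-5p to 0.66 and 0.40 in the first. For TG Me-X04- against WT, miR-223-3p turned to 0.18 with library size, 0.24 with all RNA tables, 0.012 with the 2 groups alone, 0.050 with a term for sample numbers and 0.091 without WT replicates 4 and 5, and ran from -0.18 to 0.11 when 1 library was left out; 4 entries were called with no filter, 1 with 10 or more UMIs in every library, 1 with read counts and 0 to 2 when 1 library was left out (0 without TG Me-X04- replicate 1 or 2, 1 without WT replicate 1). The miR-142a arm differences turned to 0.13, 0.0067 and 0.13 with miR-142b added, and that for TG Me-X04- against WT ran from -0.19 to 0.015 (above 0 without WT replicate 1 or 2). When 1 library was left out, the miR-223 arm difference ran from 1.48 to 2.07 against TG Me-X04- and from 1.77 to 2.36 against WT, passing in both without TG Me-X04+ replicate 5 (1 UMI gave 1.07 and 2.62, read counts 0.71 and 2.36), and miR-223-3p over miR-142a-3p against WT ran from -0.34 to 0.042 (0.042 without TG Me-X04+ replicate 2). The causes were not tested. With the stricter thresholds of the study's figure legends (adjusted p below 0.01, log2 fold change above 1 in size), an alternative chosen after seeing the data, 80 entries were called between TG Me-X04+ and TG Me-X04-, 137 between TG Me-X04+ and WT and 0 between TG Me-X04- and WT (edgeR, 54 at an unadjusted p under 0.05), and the 3 arms stayed called. With the replicate block miR-223-3p was at -1.95 (edgeR adjusted p = 7.3e-05), 153 entries were called, and no call of the 4 changed. The filter of 10 UMIs in every library left no value for miR-223-5p. Depth limits miR-223-5p most, at 0 to 29 UMIs per library.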

Other observations

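The 3 miRNA entries with fewer reads per UMI than miR-142b, picked out after their values were seen, were miR-3970 at 1.31, miR-16-2-3p at 1.35 and let-7b-3p at 1.38.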
